A study of Rattus norvegicus with 12 samples.

Results

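The RNAs described here are those reported by 177 microarray probes that read lower in each of 8 arrays of ischaemic rat brain than in any of 4 arrays of normal brain. The array carries 60148 distinct 60-base probes, of which 57102 have names beginning with rclstr, and 38526 of those gave a signal well above background on all 12 arrays. The members were selected on measured values from that last set. In the deposited log2 values the highest of the 8 ischaemic arrays had to lie below the lowest of the 4 control arrays, and the 2 means had to differ by at least 0.585, which is 1.5-fold. The members make up 0.459% of the probes that could qualify. The opposite pattern, higher in every ischaemic array, was met by 282 probes. Because the fall from control chose the members, it is described below with no test.

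Each of the 12 samples is total RNA from rat brain on its own one-colour array, in 3 groups of 4. The control group is labelled normal. The model group was taken at day 7 of an ischaemia made by embolization of the middle cerebral artery, the vessel that supplies much of one cerebral hemisphere. The BHD group had the same embolization and the same day 7, and also received Buyang Huanwu Decoction, a mixture of several herbs from Chinese medicine. The labels name no strain, age, dose or route, and the strain field reads only male. The design text speaks of ischaemia in every group although the control samples are labelled normal, and the sample titles were used to assign groups. The tissue field reads brain for every sample. The descriptions name the hippocampus for all model and BHD samples and for control replicates 3 and 4, and are empty for control replicates 1 and 2. For 10 of the samples the descriptions say biological replicate, and none is linked to a given animal. All 4 BHD descriptions carry the same replicate number, 4, and BHD replicate numbers were taken from the titles. The labels thus leave unsaid whether the BHD samples came from separate animals, and the spread below is that between samples and p-values measure no more than it.

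On slide 1 the control arrays took row 1 and the model arrays row 2, and on slide 2 the BHD arrays took row 1. The members therefore differ from control both between rows of a slide and between slides within a row. Signal was even across arrays. Between 73.18% and 77.26% of probes were well above background, and the array's 75th percentile was 396.8 to 451.9 units. The 8 E1A probes, which report an added viral RNA, lay above that percentile by 4.832 ± 0.057 log2 units (SD, n = 4) on control arrays, by 4.659 ± 0.05 on model arrays and by 4.73 ± 0.044 on BHD arrays. With arrays centred on these probes instead, 63 of the 177 members met the rule, among them 9 of the 10 with the largest difference. On that scale the mean of the control arrays was still the higher one for all 177 members, by 0.42 or more. The part of the spike-in difference in the members' fall was not tested.

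Globins are the oxygen carriers of red blood cells. An alpha chain and a beta chain, encoded by separate gene clusters that hold several nearly identical copies, join to form haemoglobin. Globin messenger RNA is made in red cell precursors and persists in young red cells, so brain tissue that still contains blood carries it. Globin RNA has also been described in neurons and glia at lower levels. An array probe of this kind is a DNA strand with the sequence of its target RNA, and it reports all labelled RNA that pairs with it. The labelling used a primer that begins on runs of A, so a member need not report a circular RNA even though the series addresses circular RNAs.

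No deposited file pairs a probe with a gene. Names were given only where at least 30 consecutive bases of a probe matched, on the same strand, the RefSeq table of gene starts for GRCr8, which covers 250 bases before to 50 bases after each start. This window paired 345 probes of the array with a gene, 179 of them among the 38526, and 3 of the 177 members. The other 174 members are given by probe name and sequence. Of 15 lists of brain cell type markers and pathway genes, with 117 genes, 13 had no probe that could be paired, so the hippocampal or neuronal nature of the tissue could not be checked against its markers here.

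Of the 6 members with the largest differences between control and ischaemic brain, 5 shared a pattern across single arrays, and 2 of these match the start of globin genes. These 5 are shown first. For rclstr_55272_6_34 and rclstr_47985_118_22, which lie at the start of globin genes, and for rclstr_50751_562_26 the last 30 bases are printed, with the ATG of the first pair in capitals. The other two are printed whole.
rclstr_55272_6_34: ggaagcaatcATGgtgctctctgcagctga
rclstr_47985_118_22: cgcaacctcaggaacagacaccATGgtgca
rclstr_51563_253_14: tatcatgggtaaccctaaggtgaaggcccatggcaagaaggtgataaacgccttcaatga
rclstr_57773_352_28: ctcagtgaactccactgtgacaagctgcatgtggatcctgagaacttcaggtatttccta
rclstr_50751_562_26: tgttcccaagagagcttctgtcagttgttg

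The probe rclstr_55272_6_34 reports alpha globin. Its bases 1 to 57 match Hba-a2 at chr10:15829089-15829145 (GRCr8, minus strand), from 7 bases before to 50 bases after the gene start. The neighbouring copies Hba-a3 and Hba-a1 share 53 and 35 consecutive bases with it, so the signal cannot be assigned to a single copy. The probe rclstr_47985_118_22 reports beta globin. Its first 50 bases match the start of both Hbb-b1 (chr1:167643471-167643520) and Hbb-b2 (chr1:167656914-167656963), and 52 and 49 bases match Hbbl1 and Hbb-bs on the same chromosome. The table pairs no gene with the other 3 probes. The window ends 50 bases after a gene start, and the rest of the globin transcripts was not compared with the probes. Whether these 3 probes report globin RNA too was therefore not tested. They may be further readings of the same globin RNAs and cannot be taken as separate RNAs.

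Levels below are log2 signals with the array's own 75th percentile subtracted, so that 0 is that percentile and a step of 1 is a doubling. For alpha globin (rclstr_55272_6_34) the level in control replicates 1 to 4 was 4.17, 3.99, 3.48 and 3.80. In model replicates 1 to 4 it was 1.59, -2.29, 0.13 and -1.43, and in BHD replicates 1 to 4 it was -0.80, -0.01, -1.01 and 1.33. The control arrays lay within 0.68 of each other, whereas the 8 ischaemic arrays spread over 3.88. The control mean was 3.86 ± 0.29 (SD, n = 4), the model mean -0.50 ± 1.72 and the BHD mean -0.12 ± 1.06, so that control exceeded model 20.5-fold and BHD 15.8-fold.

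Beta globin (rclstr_47985_118_22) read 2.11, 2.06, 1.13 and 1.46 in the control arrays. It read -0.51, -3.54, -1.34 and -2.51 in the model arrays and -1.71, -1.22, -2.39 and -0.20 in the BHD arrays. Model replicate 2 was again the lowest array and model replicate 4 the next. Control exceeded model 12.7-fold and BHD 8.38-fold.

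The 3 probes without a gene name moved with the globin pair. The probe rclstr_51563_253_14 read 7.24, 7.08, 6.54 and 6.75 in control, 4.73, 0.94, 3.65 and 1.84 in model, and 2.60, 3.26, 2.28 and 4.62 in BHD arrays. The probe rclstr_57773_352_28 read 8.36, 8.22, 7.76 and 7.92 in control, 6.16, 2.37, 5.09 and 3.39 in model, and 4.07, 4.67, 3.79 and 6.0 in BHD arrays. The probe rclstr_50751_562_26 read 8.99, 8.91, 8.67 and 8.67 in control, 7.23, 3.73, 6.15 and 4.70 in model, and 5.38, 6.07, 5.05 and 7.00 in BHD arrays. These differ between control and the 8 ischaemic arrays by 15.1-fold, 12.3-fold and 8.86-fold.

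The order of the 8 ischaemic arrays was identical in 4 of these 5 probes and in no other member. From high to low it ran model 1, BHD 4, model 3, BHD 2, BHD 1, BHD 3, model 4 and model 2. In beta globin only neighbours in that order changed places. Model replicate 1 exceeded model replicate 2 by more than 3 log2 units in all 5 probes, and the next member in that respect differed by 1.62. These probes are read on the same arrays and from the same RNA, so the shared order is not a set of independent measurements. In bulk tissue RNA, fewer cells that carry an RNA and less of that RNA per cell cannot be told apart. Globins are the one marker of another source of RNA, blood, that could be named among the members by a gene start. Their values moved with the group, and their part in the fall of other members was not tested. Whether members without a gene name also report RNA from blood was not tested.

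The other 5 of the 10 members with the largest differences did not follow the globin order in full. None of them matched a gene start.
rclstr_12854_3223_8: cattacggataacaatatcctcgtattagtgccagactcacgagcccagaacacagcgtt
rclstr_12424_1842_6: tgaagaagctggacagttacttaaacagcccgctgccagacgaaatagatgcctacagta
rclstr_19444_1856_5: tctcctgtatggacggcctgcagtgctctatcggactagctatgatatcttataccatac
rclstr_55270_243_15: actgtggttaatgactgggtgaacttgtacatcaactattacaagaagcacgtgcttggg
rclstr_5759_5012_3: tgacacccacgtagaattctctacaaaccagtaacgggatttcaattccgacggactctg

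In 3 of them the control arrays themselves fell into pairs. The probe rclstr_12854_3223_8 read 0.88 and 1.67 in control replicates 1 and 2 but -1.60 and -2.72 in control replicates 3 and 4. Its 4 model arrays lay at -3.27, -3.89, -3.54 and -3.84, and its 4 BHD arrays at -4.12, -4.49, -3.45 and -3.30. Its mean difference of 3.29 (9.81-fold) was made of a difference of 5.01 for control replicates 1 and 2 and of 1.58 for control replicates 3 and 4.

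The probe rclstr_12424_1842_6 behaved alike. It read -0.24, 0.65, -2.31 and -3.54 in control, -3.62, -4.05, -3.90 and -3.86 in model, and -4.11, -4.63, -4.14 and -4.02 in BHD arrays. Control replicate 4 lay 0.09 above the highest ischaemic array.

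The probe rclstr_19444_1856_5 read 4.65, 5.50, 3.00 and 2.25 in control, 2.20, 1.66, 1.52 and 2.21 in model, and 1.96, 1.02, 1.71 and 1.67 in BHD arrays. Against control replicates 3 and 4 alone its difference from the ischaemic arrays was 0.89, and against control replicates 1 and 2 it was 3.33. The 2 lower control samples are those whose descriptions name the hippocampus, as do those of the ischaemic samples.

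In 5 of the 177 members (2.82%) control replicates 1 and 2 both exceeded control replicates 3 and 4 by more than 1, compared with 0.459% of the 38526 probes. The remaining pair was rclstr_21724_294_13 and rclstr_43233_365_8, whose differences were 2.05 and 2.03 against control replicates 1 and 2 but 0.73 and 0.34 against control replicates 3 and 4. They were singled out after their values were seen. Without any such minimum, control replicates 1 and 2 both exceeded the other control arrays in 63 members (35.6%, against 23.9% of all 38526), and the reverse held in 48 (27.1%, against 21.8%). The rule used the mean of the control arrays, so high values in a pair of them helped a probe to qualify. These shares of members are therefore a description only. With control replicates 1 and 2 left out, 836 probes met the rule, and 144 of the 177 members were among them. Fewer arrays make non-overlap easier to meet, and no other pair was left out for comparison. The region sampled in control replicates 1 and 2 is not given by the labels, and its part in these values was not tested.

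The probe rclstr_55270_243_15 was low in all ischaemic arrays and followed the globin order in its lowest arrays only. It read -0.68, -0.37, -1.54 and -0.71 in control, -3.41, -5.04, -2.59 and -3.87 in model, and -2.30, -3.04, -3.81 and -3.23 in BHD arrays, a mean difference of 6.02-fold. From high to low these were BHD replicate 3, model replicate 4 and model replicate 2, as in the 5 probes that shared the globin pattern. Model replicate 2 was lowest and model replicate 4 next in 6 of the 177 members, which are those 5 and this probe.

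The probe rclstr_5759_5012_3 had the most even control arrays of these 5, at -0.79, -0.66, -0.75 and -0.20. Its model arrays read -2.79, -2.23, -2.08 and -2.94, and its BHD arrays -4.60, -2.95, -2.93 and -3.08. Control exceeded model 3.75-fold and BHD 6.91-fold, the latter with BHD replicate 1 far below the other 3.

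Beyond these 10 the differences were smaller. Of the 177 members, 6 differed between control and the ischaemic arrays by 8-fold or more, 4 by 4-fold to 8-fold, 30 by 2-fold to 4-fold and 137 by less than 2-fold. The median over the members was 0.765 log2 units (1.7-fold), beside 0.0124 over all 38526 probes. Control exceeded model by a median of 0.68 (0.35 to 4.36) and BHD by a median of 0.90 (0.47 to 3.98). In 29 members the difference was 2-fold or more for both ischaemic groups, in 38 for BHD alone, in 1 for the model alone and in 109 for neither. The rule was applied to deposited values, and on the percentile scale the groups stayed apart in 172 of the 177.

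Near the threshold the pattern was slight. The last members inside it were rclstr_9823_2933_16 and rclstr_7652_4334_4, with deposited mean differences of 0.5863 and 0.587. The first outside were rclstr_28466_297_13 and rclstr_6582_3009_14, at 0.5849 and 0.5848. The smallest gaps between the lowest control and the highest ischaemic array were 0.00199 in rclstr_51966_344_8 and 0.00351 in rclstr_51356_253_26. With a minimum of 1 in place of 0.585, 35 probes were left, and without a minimum 864 probes kept their groups apart.

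The members reached across the range of signal. With the 38526 probes divided by control signal into 4 groups of equal size, 37 members fell in the dimmest, 60 and 40 in the next ones and 40 in the brightest. With normexp background correction (offset 50) and percentile scaling, 78 members still met the rule. The 37 members of the dimmest group all failed it, and some members of the brighter groups failed it too. The members' scatter within the control, model and BHD groups was wider than that of all 38526 probes. The median SD was 0.184 against 0.134 in control, 0.26 against 0.157 in model and 0.263 against 0.168 in BHD arrays. Base composition was the same, with a median GC content of 46.7% and a range of 40% to 46.7% in both. Of the members, 46.3% held at least 2 CG dinucleotides, against 56.9% of all 38526. No member held a run of 5 A, nor did any of the 38526.

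The third member paired with a gene was rclstr_37799_1_7. Its first 49 bases match the start of Tmem254, which encodes a predicted transmembrane protein, at chr16:1514542-1514590 (GRCr8, minus strand). It read -1.61, -1.38, -1.71 and -1.56 in control, -1.82, -2.37, -2.05 and -2.42 in model, and -2.08, -2.70, -1.99 and -2.12 in BHD arrays. The groups stayed apart by 0.12, and the mean difference was 1.55-fold. A further member, rclstr_36422_44_20, matches in full a stretch at chr7:115639532-115639591 that ends 164 bases before the start of Cenpm, on its strand, and is not named by it.

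Some members overlap other probes in sequence. Of the 177, 13 share at least 25 consecutive bases with another probe, on the same or the opposite strand, and 164 do not. Overlapping probes of the same strand are not independent, since they can report the same RNA. Those of opposite strands carry the sequences of opposite RNA strands, and are read on the same arrays. The pair of members with the longest overlap between them is printed with its 42 shared bases in capitals.
rclstr_18975_2054_21: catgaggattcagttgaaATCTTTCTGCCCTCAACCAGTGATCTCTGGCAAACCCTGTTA
rclstr_19671_1993_70: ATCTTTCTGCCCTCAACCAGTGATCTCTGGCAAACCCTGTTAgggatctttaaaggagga

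These 2 members moved together array by array. The first read 2.01, 2.11, 1.77 and 1.54 in control, 1.53, 0.78, 0.19 and 1.49 in model, and 1.31, 0.17, 1.12 and 1.16 in BHD arrays. The second read 2.26, 2.31, 1.95 and 1.87 in control, 1.76, 0.81, 0.33 and 1.77 in model, and 1.48, 0.32, 1.20 and 1.29 in BHD arrays. Model replicate 3 and BHD replicate 2 were the lowest arrays of their groups in both. A probe of the opposite strand, rclstr_56317_66_16, covers 50 and 52 of their bases. It too was lower in ischaemic brain, with means of -1.88 ± 0.26 (SD, n = 4) for control, -2.81 ± 0.72 for model and -2.99 ± 0.46 for BHD arrays and overlapping groups.

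In all, 10 probes that are not members share such a stretch with a member, 5 on the same strand and 5 on the opposite one. Each of the 10 had a higher mean in control than in the ischaemic arrays, by 0.11 to 1.02 with a median of 0.67, compared with 52.6% of the 38526 probes that were higher in control. On the percentile scale the groups were apart in 881 of the 38526 probes, and in 1 of these 10 partners. That partner, RNO_CIRCpedia_3457_0_12, carries the name of a collection of circular RNAs and shares 41 bases, in capitals here, with a member.
rclstr_3504_2779_6: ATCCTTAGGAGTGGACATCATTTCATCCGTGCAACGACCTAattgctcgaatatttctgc

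The member rclstr_3504_2779_6 read 0.24, 0.68, 0.11 and 0.01 in control, -0.20, -0.37, -0.43 and -0.51 in model, and -0.75, -0.58, -0.74 and -0.94 in BHD arrays. Its CIRCpedia partner read 0.04, 0.51, -0.03 and -0.17 in control, -0.35, -0.55, -0.52 and -0.64 in model, and -0.94, -0.87, -1.01 and -1.11 in BHD arrays. The mean differences were 0.82 for the member and 0.84 for the partner, and in both every BHD array lay below every model array.

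Of the other 2 CIRCpedia partners, RNO_CIRCpedia_1031_16_10 differed by 0.41 where its member rclstr_29472_390_10 differed by 0.72, over 29 shared bases. RNO_CIRCpedia_3631_10_6 differed by 0.11 where its member rclstr_40660_516_7 differed by 0.69, over 25 shared bases. A shared stretch thus did not always come with the same difference. The widest such disparity was at rclstr_36421_1142_19, which differed by 1.70 while rclstr_41723_849_68, with 40 bases in common on the same strand, differed by 0.54.

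The opposite-strand partners likewise differed less or more than their members. The member rclstr_1587_8090_26 differed by 0.69 and rclstr_39489_216_12, its reverse complement over 59 bases, by 0.39. The member rclstr_31736_658_6 differed by 1.18 and rclstr_56565_198_6, opposite over 55 bases and well above background on 11 arrays, by 0.74.

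The difference between treated and untreated ischaemic animals is not itself a term of the rule, but the rule used the values of all 8 of these arrays. A probe with any BHD or model array at or above the lowest control array could not become a member, which left out probes that BHD had brought back to the control range. No minimum was set for either ischaemic group alone, so a fall that came mostly from BHD could qualify. The shares of members that follow are therefore a description, and the p-values given are those of single probes. BHD and model arrays differ in slide and row as well as in treatment, and these cannot be told apart. In a limma fit over all 12 arrays and 44719 probes, a probe was called at a Benjamini-Hochberg adjusted p under 0.05 over all of them. All 177 members passed the filter on dim probes, which the rule itself had asked for. Of the 177, 8 (4.52%) were called lower with BHD, against 2.50% of all tested probes, and 0 were called higher, against 0.691%. At an unadjusted p under 0.05 in the same limma fit, 50 members (28.2%) were lower, against 11.4% of all tested probes, and 0 were higher, against 5.69%.

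The mean of the BHD arrays was below that of the model arrays in 136 members (76.8%), against 55.5% of all tested probes. The median of the BHD minus model differences was -0.21 over the members, within a range of -0.95 to 0.63, and -0.02 over all tested probes. With normexp background correction the members' median was -0.08 with percentile scaling and -0.07 with quantile normalization. Every BHD array lay below every model array in 18 members (10.2%, against 7.10% of all tested probes) and above in 0 (against 2.93%). Without model replicate 1 the called members numbered 3, without BHD replicate 1 they numbered 4, as they did without BHD replicate 3, and without BHD replicate 4 they numbered 14. They numbered 14 with E1A centring, 5 with no filter on dim probes and 4 in the fit of the model and BHD arrays alone. E1A probes lay 4.73 above the percentile on BHD arrays and 4.659 on model arrays. Centring on them therefore lowers every probe in BHD relative to model arrays. Calls over all tested probes also changed when an array was left out or the filter dropped, so these counts are a description only.

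The 5 called members with the largest falls are given with their values, and 3 of them are printed. The reference table pairs no gene with any of the 5.
rclstr_45926_242_18: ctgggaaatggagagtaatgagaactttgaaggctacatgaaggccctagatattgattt
rclstr_54772_272_9: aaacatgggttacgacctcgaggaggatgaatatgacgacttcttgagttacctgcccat
rclstr_18486_597_8: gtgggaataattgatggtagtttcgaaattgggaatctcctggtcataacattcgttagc

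The probe rclstr_45926_242_18 read -2.64, -2.58, -2.79 and -2.72 in control, -3.34, -3.40, -3.10 and -3.31 in model, and -4.37, -4.11, -4.69 and -3.67 in BHD arrays. It formed 3 steps with no overlap, and fell by 0.92 ± 0.17 (SE) from model to BHD (limma, adjusted p = 0.018). Its call was lost in the fit of the model and BHD arrays alone (adjusted p = 0.0569), and without model replicate 3 or BHD replicate 1.

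In rclstr_54772_272_9 the model arrays stayed near control and the BHD arrays stood apart. It read -1.79, -1.66, -1.68 and -1.69 in control, -1.81, -2.08, -2.30 and -2.15 in model, and -3.23, -2.93, -2.75 and -3.00 in BHD arrays. It fell by 0.89 ± 0.12 (SE) from model to BHD (limma, adjusted p = 0.00379). Control exceeded model 1.3-fold and BHD 2.42-fold.

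The probe rclstr_18486_597_8 read 0.11, 0.28, 0.07 and 0.06 in control, -0.21, -0.12, -0.44 and -0.49 in model, and -0.97, -1.24, -1.01 and -0.91 in BHD arrays. It fell by 0.72 ± 0.11 (SE) from model to BHD (limma, adjusted p = 0.00542), again with 3 separate groups.

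The remaining pair was nearer the threshold. The probe rclstr_47106_413_12 read 0.10, -0.25, 0.09 and 0.12 in control, -0.32, -0.47, -0.55 and -0.28 in model, and -0.99, -1.36, -0.99 and -0.72 in BHD arrays. It fell by 0.61 ± 0.13 (SE; limma, adjusted p = 0.0356), and lost its call under 9 other settings at adjusted p of up to 0.0949.

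The probe rclstr_7369_489_10 read -1.80, -1.60, -1.76 and -1.69 in control, -2.09, -2.16, -2.10 and -1.90 in model, and -2.49, -2.66, -3.09 and -2.34 in BHD arrays. It fell by 0.58 ± 0.14 (SE; limma, adjusted p = 0.0463) and lost its call under 16 other settings, up to an adjusted p of 0.112. Its opposite-strand partner rclstr_3501_6180_6, over 48 bases, went from 0.67 ± 0.56 (SD, n = 4) in control to -0.07 ± 0.25 in model and -0.25 ± 0.27 in BHD arrays, where the last 2 groups overlap. The other 3 called members fell by smaller amounts, the least by 0.39.

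The globin probes were not among the called members. Alpha globin (rclstr_55272_6_34) was 0.38 ± 0.74 (SE) higher in BHD than in model arrays (limma, adjusted p = 0.865) and beta globin (rclstr_47985_118_22) 0.60 ± 0.61 higher (adjusted p = 0.702). For alpha globin the difference was -0.22 without model replicate 2 and -0.11 without BHD replicate 4. A 2-fold difference between the ischaemic groups, 1 log2 unit, is less than 2 of these standard errors, so it was not detectable in the globin probes. Among the other members with the largest falls from control, rclstr_12854_3223_8 and rclstr_12424_1842_6 had differences of -0.21 ± 0.78 and -0.37 ± 0.71 (adjusted p = 0.938 and 0.862), and rclstr_5759_5012_3 had -0.88 ± 0.35 (limma, adjusted p = 0.22).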

How the data were processed

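Per the submitters' processing notes, the image software was Agilent Feature Extraction 10.7.1.1. The scanner files hold processed spot intensity, background-subtracted per the file headers, mean and local background intensity, and other flags per spot that Feature Extraction set, per the file headers. The deposited log2 table was made by the authors from the same arrays. Its scale and direction followed from the scanner values (r of 0.99945 or higher, median 6.134 in every column), it was not centred per probe, and its quantile normalization was inferred from the values.

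The deposited values decided membership. All other levels are log2 processed intensity minus each array's 75th percentile. A probe counted as well above background when most of its spots did, which left out rclstr_35538_1019_7. No member's spot was flagged as an outlier, and none was saturated. The number of arrays limits the precision. BHD minus model was fitted with limma 3.58.1 in R 4.3.3 with 1 mean per group, on probes that all 4 arrays of some group measured well above background, after the fit was checked on simulated data.

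Members and gene lists were chosen with earlier results of these data known. Members named are the 10 with the largest differences, the 5 called with the largest falls, the 3 with the highest control signal, those nearest the limits of the rule, those that share sequence (up to 6 sets) and those matched to a gene. The files name rn4 in a header but give no probe positions. Alternatives were quantile normalization, another percentile, normexp (offset 50), E1A centring, the deposited values, other filters, thresholds, samples and variance models, and a replicate block.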

Additional observations from a re-analysis of the deposited data

Results flagged for a closer look

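Within groups of 4 samples, a single array stood far from the other 3 in 4 of 78 groups examined over the named members, where chance gives about 1 group in 20. In rclstr_5759_5012_3, BHD replicate 1 read -4.6 and the other BHD arrays -3.08 to -2.93. In rclstr_18975_2054_21, BHD replicate 2 read 0.17 and the others 1.12 to 1.31, and its overlapping probe rclstr_19671_1993_70 was also lowest there, at 0.32. In rclstr_47106_413_12, control replicate 2 read -0.25 and the others 0.09 to 0.12. In rclstr_51356_253_26, control replicate 4 read -4.25 and the others -3.82 to -3.74, and this array set its gap of 0.00351 to the ischaemic arrays.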

How the results depend on the processing

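The rule gave 177 probes. It gave 84 under normexp with either scaling (78 of the 177 among them), 63 with E1A centring, 35 with a minimum difference of 1 and 864 with none. Leaving out 1 array gave 176 to 371, the highest without control replicate 1 (371), then without model replicate 1 (299) and control replicate 4 (267). In alternatives chosen after seeing the data it gave 836 without control replicates 1 and 2, 448 with the model arrays alone and 844 with the BHD arrays alone. Non-overlap is easier to meet with fewer arrays. Between BHD and model, 1428 probes were called, 325 of them at adjusted p under 0.01, and 940 with no filter on dim probes. Leaving out 1 array gave 697 to 1474, with 719, 876, 936 and 858 without model replicates 1 to 4, and 697 and 756 without BHD replicates 1 and 3. The 8 called members became 2 at adjusted p under 0.01, 14 with E1A centring, 5 with no filter, 4 in the fit of model and BHD arrays alone and 3 to 14 with 1 array left out, all of them lower with BHD. E1A centring lowers every probe in BHD relative to model arrays. The members' median difference of -0.21 became -0.08 and -0.07 under normexp with percentile and with quantile scaling, and ran from -0.26 to -0.14 with 1 array left out. For the named members, 589 of the alternative values kept their side of the threshold, 28 lost a call, 7 gained one and 0 turned a call round. The cause of these changes was not tested. Same-numbered arrays of different groups correlated at r of -0.231 to 0.279, so the numbers were not taken to pair samples. With the replicate block 1020 probes and 8 members were called, and rclstr_7369_489_10 lost its call (adjusted p = 0.0571).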
